A study of Oryza sativa Indica Group with 4 samples.

Results

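Aquaporins are membrane channels that let water and small uncharged solutes pass, and 28 rice genes carry an aquaporin name of the PIP, TIP, NIP or SIP kind in NCBI's gene table. Of these, 25 had at least 1 probe set (a group of short probes read as 1 signal) paired with that gene alone, among 17905 genes so paired on the array. They are 10 PIP, 8 TIP, 5 NIP and 2 SIP genes. NIP1-2, NIP3-3 and PIP2-3 had no such probe set and were not analysed here. Each gene was read at its brightest probe set by mean, and 5 of the 25 genes had more than 1.

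Oryza sativa (Indica Group) panicle primordia, the young inflorescences, were taken at the stage that the submitters number 0. RNA was bulked from 10 recombinant inbred lines, which are lines fixed by repeated selfing and here derived from 2 cultivars. The lines of a bulk had either many grains on a panicle (high grain number) or few (low grain number), and no treatment, age or parent name is given in the labels. Each kind has 2 biological replications, so 4 Affymetrix rice arrays were compared, and the labels do not say whether the replications are of the same lines. The p-values therefore measure only the spread between these arrays, and the values of single lines are not seen.

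Plasma membrane intrinsic proteins (PIPs) carry water across the cell's outer membrane. They fall into PIP1 and PIP2 types, and PIP1 proteins often need a PIP2 partner to reach that membrane. Tonoplast intrinsic proteins (TIPs) sit in the vacuole's membrane and are known in growing plant tissue, where the vacuole fills as cells enlarge. Nodulin 26-like intrinsic proteins (NIPs) carry solutes such as silicic acid and boric acid, and small basic intrinsic proteins (SIPs) lie in internal membranes.

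Intensities below are quantile normalised, which gives the 4 arrays the same distribution of values, and have arbitrary units. Differences are high minus low grain number after taking log2(intensity + 16), where the added 16 pulls the differences of dim probe sets towards 0. A call is a limma adjusted p under 0.05 over all 34316 probe sets bright enough to be tested. Intensity depends on the probes, so no gene's level is set against another's. The number of arrays limits the precision.

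Of the 25 genes, 21 were bright enough to be tested, and 1 of them, PIP2-2, was higher in the high grain number bulks by the limma test. No aquaporin passed in the other direction. Over all tested probe sets 0.154% were called higher, 0.414% were called lower and 0.568% were called in either direction. At an unadjusted p under 0.05 there were 10 aquaporins, 7 higher and 3 lower, where all tested probe sets gave 8.24% (3.85% higher and 4.39% lower). The difference was positive for 13 of the 21 and negative for 8, with a median of 0.31, and 52.1% of all tested probe sets were positive, with a median of 0.01. In 14 of the 21 the arrays of the groups did not overlap, 10 with the high bulks above and 4 with them below, against 37.1% of all tested probe sets, 19.6% above and 17.6% below. In RNA from whole tissue, fewer cells of a type and less RNA per cell cannot be told apart.

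**Figure D1:**
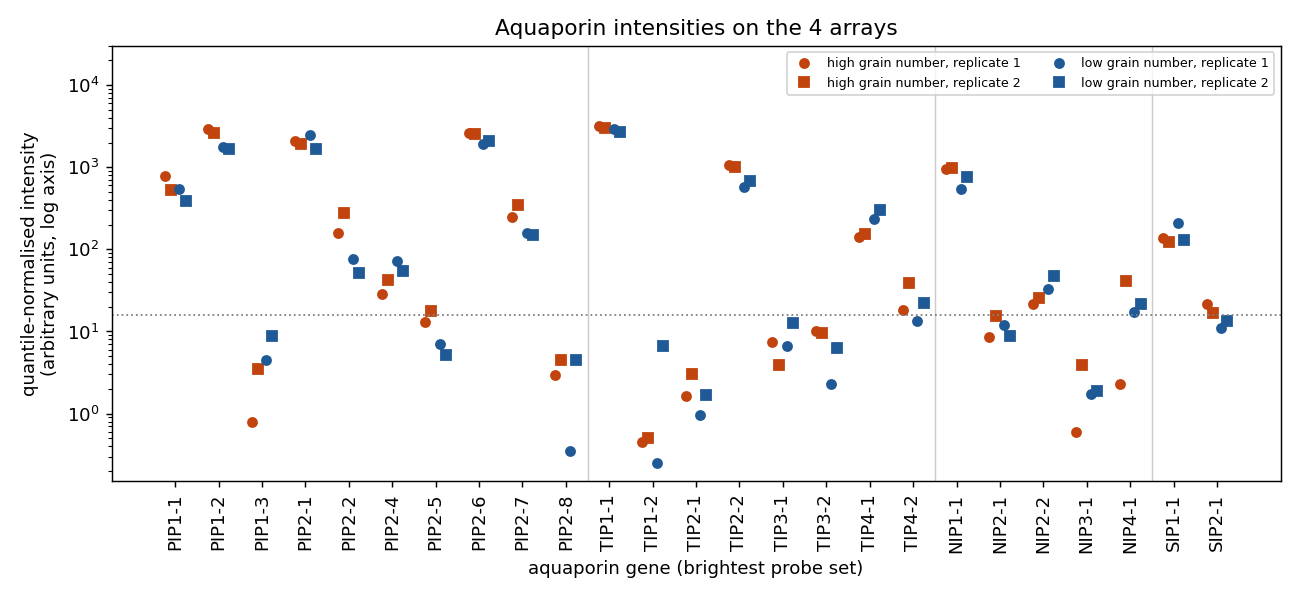
Quantile-normalised intensity (log axis, arbitrary units) of the 25 aquaporin genes on each array, with orange for high and blue for low grain number, circles for replicate 1, squares for replicate 2 and a dotted line at 16, the value added before the logarithm. PIP2-2 has both high arrays, at 160 and 276, above both low arrays, at 77.0 and 50.9, while TIP4-1 has both high arrays below.

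The PIP2 proteins are the more active water channels of the plasma membrane. PIP2-2 (LOC4330049) had an intensity of 160 and 276 on the high grain number arrays and of 77.0 and 50.9 on the low ones. Both high arrays stood above both low arrays. Its mean was 218 ± 82.1 (SD, n = 2) in the high bulks against 63.9 ± 18.4 in the low bulks, which is 3.41-fold higher. The log2 difference was 1.52 ± 0.27 (SE, limma adjusted p = 0.0358). This value comes from a probe set whose name ends in _s_at, the manufacturer's mark for probes shared by several transcripts, so it may not read this gene alone. The same holds for the probe set read for TIP3-1 (_s_at) and, through the mark _x_at for probes that may bind other sequences, for those of TIP2-2, TIP4-2 and NIP2-2. The gene's other probe set, whose name carries no such mark, read 0.93 and 2.58 on the high arrays against 2.65 and 0.20 on the low arrays. It was too dim to be tested. With 16 added such low values barely differ, so averaging them in draws the gene's difference towards 0. The PIP2-2 call was lost under the authors' scaling (limma adjusted p = 0.0965), and with the log2 values of both probe sets averaged the difference was 0.78 (adjusted p = 0.294). Leaving out high grain number replicate 2 also ended it (log2 difference 1.16, adjusted p = 0.174), as did leaving out either low array (1.78 and 0.0986 for replicate 1, 1.27 and 0.328 for replicate 2). It held when high grain number replicate 1 was left out (1.90, adjusted p = 0.0385).

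PIP2-7 (LOC4347729), another PIP2 water channel, read 248 and 350.3 on the high arrays against 158 and 152 on the low arrays. The high arrays were again above the low ones, with a log2 difference of 0.86 ± 0.22 that did not pass (limma adjusted p = 0.162). PIP2-6 (LOC4335226) read 2592 and 2530 on the high arrays against 1908 and 2101 on the low arrays. These did not overlap either, with a smaller log2 difference of 0.35 ± 0.14 (limma adjusted p = 0.521), and they did overlap in the values as deposited. PIP2-8 was too dim to be tested, at 0.35 to 4.53 on the 4 arrays.

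PIP2-4, PIP2-5 and PIP2-1 lie together in NCBI's gene order, PIP2-5 next to PIP2-1 and 1 gene from PIP2-4, and their differences had different signs. PIP2-4 (LOC4343119) read 28.6 and 42.9 on the high arrays against 71.5 and 54.8 on the low arrays, so the low bulks were higher. Its log2 difference was -0.62 ± 0.23 (limma adjusted p = 0.473). PIP2-5 (LOC4343121), known in rice for water uptake in roots, read 13.1 and 18.0 on the high arrays against 6.98 and 5.23 on the low arrays. Here the high bulks were higher, differing by 0.51 ± 0.19 on the log2 scale (limma adjusted p = 0.497), and the mean of each group lay below the 16 added to every value. PIP2-1 (LOC4343122) read 2093 and 1944 on the high arrays against 2475 and 1645 on the low arrays. The low arrays spanned the high ones, and the log2 difference was 0.00 ± 0.19 (limma adjusted p = 1.00). In the values as deposited both low arrays (2356.6 and 1981.5) stood above both high arrays (1930.0 and 1908.5), with a log2 difference of -0.17. A second bright probe set of PIP2-1 read 1950 and 2320 on the high arrays against 1648 and 1676 on the low arrays, differing by 0.35 ± 0.15 on the log2 scale (limma adjusted p = 0.570). Its remaining probe set was dim, at 0.10 to 7.53. The bright probe sets of this gene disagreed on whether the groups overlap, and neither passed. The second carries the mark _x_at, so it may not read this gene alone.

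Among the PIP1 genes, PIP1-2 came nearest to a call. PIP1-2 (LOC9270874) read 2888 and 2592 on the high arrays against 1780 and 1673 on the low arrays. The groups did not overlap, and the means, 2740 ± 210 (SD, n = 2) and 1726 ± 75.5, differed 1.59-fold. The log2 difference was 0.66 ± 0.14 (limma adjusted p = 0.0837). PIP1-1 (LOC4330248), known as RWC1, read 780 and 533 on the high arrays against 545 and 387 on the low arrays. One low array lay above one high array, and the log2 difference was 0.48 ± 0.23 (limma adjusted p = 0.651). It was 0.21 without high grain number replicate 1, 0.74 with high replicate 2 left out and 0.24 with low replicate 2 left out, so its size rests on single arrays. PIP1-3 (LOC4331194), known as RWC3 and studied in rice for its part in drought responses, was dim, at 0.80 and 3.53 on the high arrays against 4.50 and 8.75 on the low arrays. Its log2 difference was -0.31 ± 0.19 (limma adjusted p = 0.760). The size for such dim genes follows the added value, with -1.36 for PIP1-3 and 1.22 for PIP2-5 when 1 was added in place of 16, and -0.09 and 0.18 when 64 was. Of all 9 tested PIP genes, 6 had a positive difference and the median was 0.48.

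**Figure D2:**
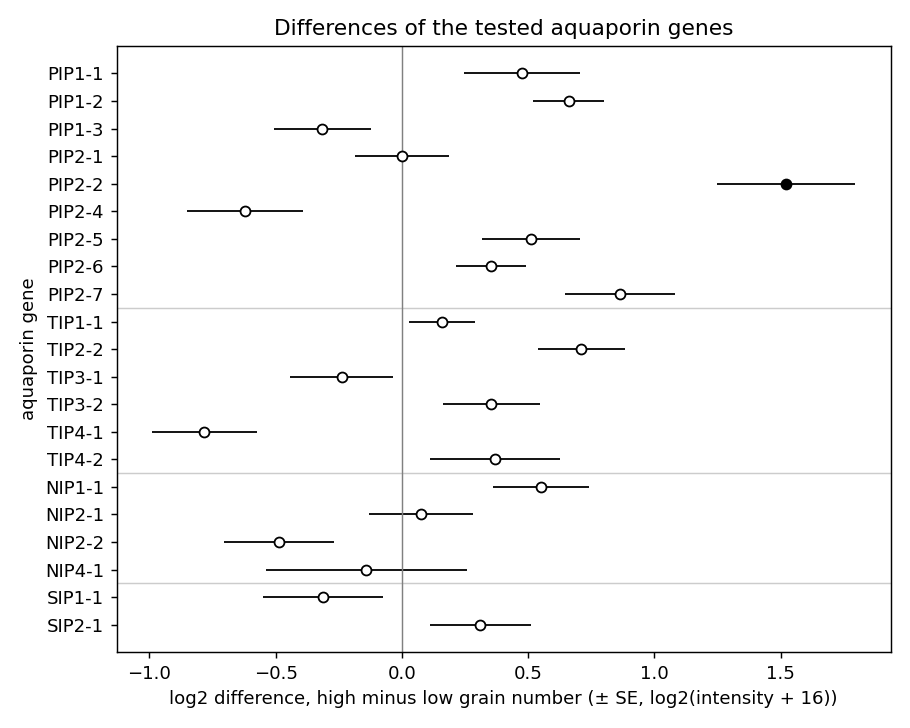
Log2 difference, high minus low grain number, of the 21 tested aquaporin genes with limma's standard error, ordered by subfamily. The filled point is PIP2-2 (1.52), which alone passed an adjusted p of 0.05, and the open points lie between -0.78 (TIP4-1) and 0.86 (PIP2-7).

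Of the 6 tested tonoplast genes, 4 had a positive and 2 a negative difference, with a median of 0.26 and 0 calls (limma, 2 at an unadjusted p under 0.05). All tested probe sets gave 0.568% called and 8.24% at that unadjusted p. TIP4-1 (LOC4338163) read 140.0 and 156 on the high arrays against 235 and 299 on the low arrays. Both low arrays stood above both high arrays, and the low bulks had a mean of 267 ± 45.0 (SD, n = 2) against 148 ± 11.0. The log2 difference was -0.78 ± 0.21, which did not pass (limma adjusted p = 0.197), and a second probe set of TIP4-1 was too dim to be tested, at 0.60 to 4.98. With the log2 values of both averaged the difference was -0.34 (limma adjusted p = 0.773), a value that the dim probe set draws towards 0. TIP2-2 (LOC4340941) read 1062 and 995 on the high arrays against 572 and 677 on the low arrays. Its direction was the opposite of that of TIP4-1, with both high arrays above and a log2 difference of 0.71 ± 0.17 (limma adjusted p = 0.140).

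TIP1-1 (LOC4331608), a tonoplast water channel of growing tissue, read 3203 and 3037 on the high arrays against 2925 and 2662 on the low arrays. The groups did not overlap but lay close, differing by 0.16 ± 0.13 on the log2 scale (limma adjusted p = 0.849). Its second probe set read 1168 and 963 on the high arrays against 797 and 680.4 on the low arrays. Both probe sets had the same sign, and the log2 difference of the second was 0.52 ± 0.18 (limma adjusted p = 0.412). That second probe set has the mark _x_at and may bind other sequences. The brightest probe set gave 0.10 without low grain number replicate 2, and both averaged gave 0.34. TIP4-2 read 18.4 and 38.5 against 13.4 and 22.3 with overlap, and the log2 difference was 0.37 ± 0.26 (limma adjusted p = 0.807). That value was 0.04 without high grain number replicate 2, 0.70 with high replicate 1 left out and 0.18 with low replicate 1 left out. TIP3-1 and TIP3-2, of a group known from maturing seeds, read 2.28 to 12.8 on every array, with log2 differences of -0.24 ± 0.20 and 0.35 ± 0.19 (limma adjusted p = 0.856 and 0.713). With 1 array left out these were -0.42 to -0.07 and 0.22 to 0.47. TIP1-2 and TIP2-1 were too dim to be tested, at 0.25 to 6.73 and at 0.95 to 3.05.

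The NIP genes include the silicon channels of rice. NIP2-2 (LOC4340558), known as Lsi6, which moves silicic acid out of the xylem in leaves and nodes, read 21.7 and 25.9 on the high arrays against 32.9 and 47.2 on the low arrays. The low bulks were higher without overlap, and the log2 difference of -0.49 ± 0.22 did not pass (limma adjusted p = 0.600) and was -0.29 without low grain number replicate 2. NIP2-1 (LOC4330713), known as Lsi1, which takes up silicic acid in roots, was dim, at 8.50 and 15.3 on the high arrays against 11.9 and 8.73 on the low arrays. Its groups overlapped, and the log2 difference was 0.08 ± 0.21 (limma adjusted p = 0.969). Lsi2 (LOC4331328), the exporter that works with Lsi1 in roots, was the only gene matched from a list of silicon and boron partner transporters, and at 0.25 to 1.53 it was too dim to be tested.

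NIP1-1 (LOC4328814) read 939 and 976 on the high arrays against 549 and 764 on the low arrays. The high bulks were higher, differing by 0.55 ± 0.19 on the log2 scale (limma adjusted p = 0.424), but in the values as deposited low grain number replicate 2, at 977, was the highest of the 4. Without low grain number replicate 1 the difference was 0.31. NIP4-1 (LOC4326119) was the least steady member, at 2.30 and 40.6 on the high arrays against 17.2 and 21.9 on the low arrays. The high arrays spanned the low ones, and the log2 difference was -0.14 ± 0.40 (limma adjusted p = 0.971), or 0.68 without high grain number replicate 1. NIP3-1 (DTE1), a boron channel needed for rice growth under low boron, was too dim to be tested, at 0.60 to 3.90.

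The SIP genes gave no call, and their differences had opposite signs. SIP1-1 (LOC4325361) read 139 and 122 on the high arrays against 207 and 132 on the low arrays. The groups overlapped, though not in the values as deposited (128 and 112 against 176 and 172). The log2 difference was -0.31 ± 0.24 (limma adjusted p = 0.835). It was -0.01 without low grain number replicate 1 and -0.61 with low replicate 2 left out. SIP2-1 (LOC4332668) read 21.4 and 16.6 on the high arrays against 10.9 and 13.5 on the low arrays. The groups did not overlap, and the log2 difference was 0.31 ± 0.20 (limma adjusted p = 0.777). They did overlap in the values as deposited (19.7 and 16.3 against 9.4 and 16.6). The mean of SIP2-1 over the arrays, 15.6, lay below the added 16.

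How the arrays are scaled matters for the bright members. Low grain number replicate 2 was the brightest array as deposited, with a trimmed mean of 55.3 against 36.5 to 40.5. With the values as deposited, 13 of the 21 differences were positive and the median was 0.24, where the median of all tested probe sets was -0.07. There were then 0 calls among the members (limma, 5 at an unadjusted p under 0.05, against 5.55% of all tested probe sets). The groups then did not overlap in 13 of the 21, against 29.5% of all tested probe sets. The high bulks were above in 8 of these and below in the rest, where quantile normalisation gave 14 with 10 above. The genes were not all the same. NIP1-1, PIP1-3, PIP2-6 and SIP2-1 overlapped as deposited but not after quantile normalisation, and PIP1-1, PIP2-1 and SIP1-1 did the reverse. After median centring 13 were positive, with a median of 0.24 where all tested probe sets had -0.07, and 1 passed, PIP2-2 (1.38, limma adjusted p = 0.0206). No tested member had the opposite sign under these scalings.

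**Figure D3:**
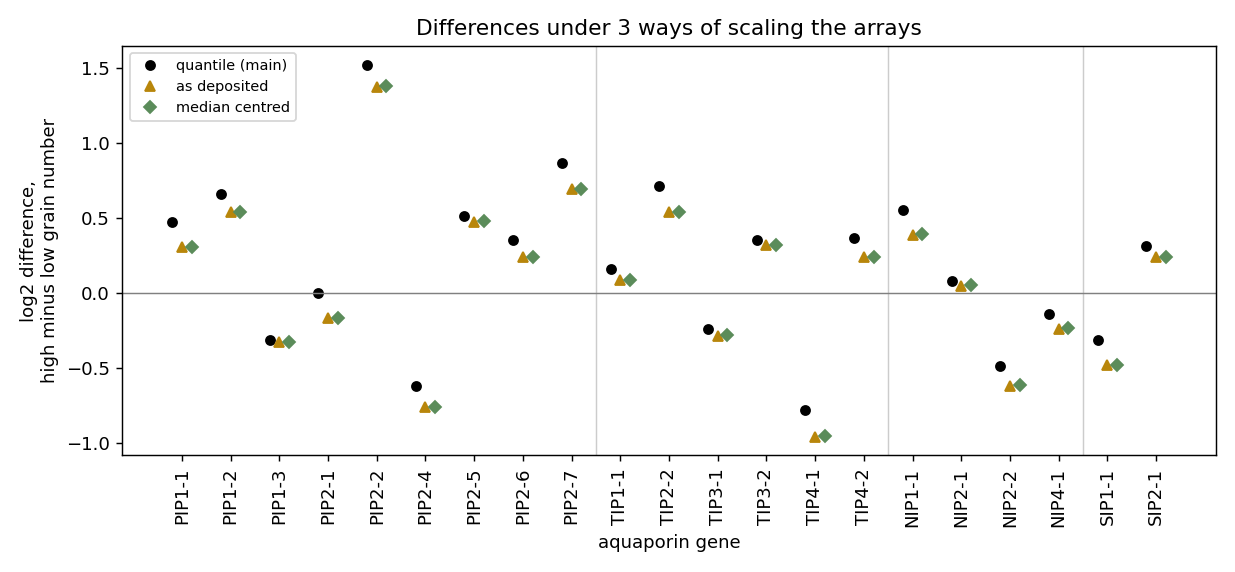
Log2 difference, high minus low grain number, of the 21 tested aquaporin genes with quantile normalisation (black circles), the values as deposited (triangles) and median centring (diamonds). The deposited and centred values lie below the quantile ones for every gene shown, as for PIP2-2 (1.37, 1.38 and 1.52), and no gene changes sign.

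Some transport genes that bear on the solute content water follows were read in the same fit. The vacuolar list also named pumps and NHX exchangers, but only 4 cation exchangers (CAX genes) were matched with a probe set. Of 33 tested genes of vacuolar exchangers, sucrose transporters and invertases, and potassium channels and transporters, 0 passed by the limma test, against 0.568% of all tested probe sets. At an unadjusted limma p under 0.05 there were 4, where all tested probe sets gave 8.24%. All 3 tested vacuolar cation exchangers had a positive difference, and CAX1a (LOC4324573) had the smallest p of these, with 0.63 ± 0.21 (limma adjusted p = 0.385). It read 41.1 and 42.5 on the high arrays against 25.4 and 17.6 on the low arrays. Of the 8 tested sucrose transporters and invertases, 4 were positive and 4 negative. SUT1 (LOC4331775), a sucrose transporter of the phloem, had the smallest p among those, with -0.56 ± 0.20 (limma adjusted p = 0.445), and CIN7 (LOC4346527), a cell wall invertase, the smallest among the positive ones, with 0.15 ± 0.22 (limma adjusted p = 0.928). Of the 22 tested potassium genes, 10 were positive and 12 negative, HKT1.5 (LOC4327757, -0.50 ± 0.21) and HAK10 (LOC4341573, 0.47 ± 0.23) having the smallest p in each direction (limma adjusted p = 0.570 and 0.652).

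Markers of other tissues were read beside these values. Among all tested probe sets 0.568% were called (0.154% higher and 0.414% lower), and 8.24% had an unadjusted p under 0.05. The genes of early inflorescences were present on all arrays, with OSH1, a meristem gene, at 527 to 763 and MADS15 at 545 to 716, while LAX1 was dim, at 9.83 to 15.98, and FZP stayed at 0.25 to 1.28. Of the 8 tested genes of that list 0 passed (limma, 1 at an unadjusted p under 0.05), that one being SPL14, at 144 and 185 on the high arrays against 492 and 282 on the low arrays, without overlap. Stem and vascular wall markers mostly moved with the groups, 5 of 6 having a negative and 1 a positive difference. By the limma test 4 were lower in high grain number bulks, where 0.414% of all tested probe sets were. CESA9 did not pass (limma adjusted p = 0.173), and LOC4347540, matched as BC1, was the positive one (0.17 ± 0.21). The summed intensities were 112 and 163 on the high arrays against 477 and 582 on the low arrays. Of 8 anther tapetum markers 4 had a positive and 4 a negative difference, with a median of 0.00, and 1 was lower by the test, RTS, at 1.53 and 0.88 on the high arrays against 224 and 553 on the low arrays. C6 read 26.2 and 293 on the high arrays against 650 and 993 on the low arrays and did not pass (limma adjusted p = 0.115). The list's sums, in which these genes are the ones that differ widely, were 281 and 492 on the high arrays against 1056 and 1767 on the low arrays. Of 8 floret organ markers and 2 tested leaf markers 0 passed (limma, 0 at an unadjusted p under 0.05). LOC4343851 was matched as MADS2 and as MADS18, so it counts in both the floret organ and the early inflorescence lists. The leaf sums overlapped, at 2452 and 1962 on the high arrays against 2516 and 2108 on the low arrays. The ratio of 3′ to 5′ signal rises as RNA degrades. For actin it was 33.3 and 36.9 in the high bulks against 42.2 and 47.8 in the low ones. For GAPDH it was 51.9 and 34.4 against 85.2 and 67.6. With both controls the ratio was higher on both low arrays than on either high array. Its lowest value was 33.3, so the 5′ signal was weak beside the 3′ signal on every array. The part of these tissues or of RNA quality in the aquaporin differences was not tested.

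**Figure D4:**
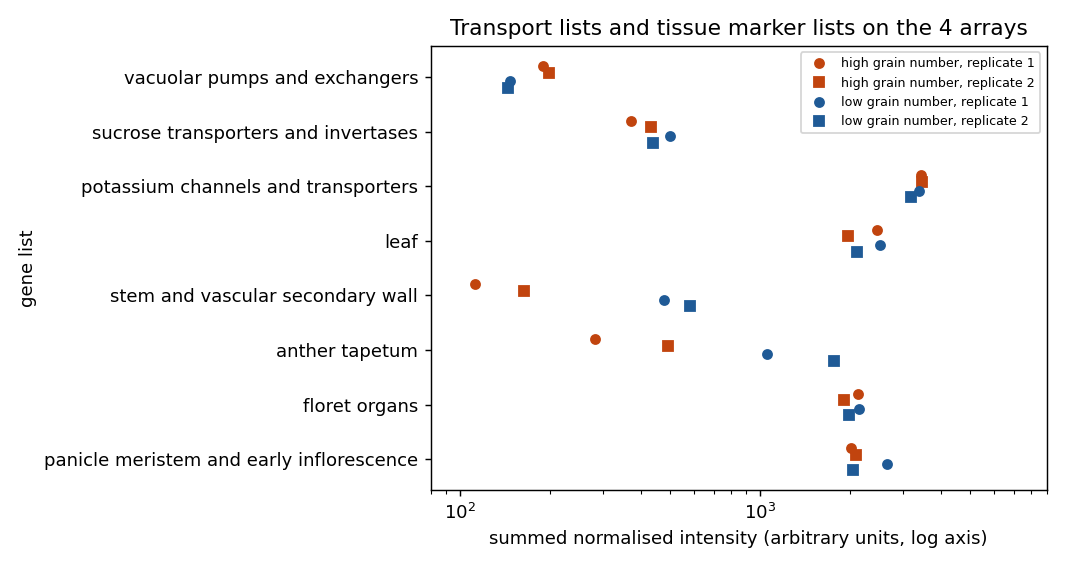
Summed quantile-normalised intensity (log axis, arbitrary units) of each transport list and tissue marker list on the 4 arrays, orange for high and blue for low grain number, with circles for replicate 1 and squares for replicate 2. The stem and vascular wall list (112 and 163 against 477 and 582) and the anther tapetum list (281 and 492 against 1056 and 1767) lie higher in the low bulks, the second through RTS and C6. The sucrose sums are also higher in the low bulks, the vacuolar and potassium sums are higher in the high bulks, and the leaf, floret and meristem sums overlap. Most of the potassium sum is HAK5, which overlapped (2320 and 2101 on the high arrays against 2197 and 1965 on the low ones). Of the 22 tested potassium genes 12 had a negative difference, and of the 8 tested sucrose genes 4 did.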

How the data were processed

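The submitters hybridised biotin-labelled RNA to an Affymetrix rice array, per the labels' protocols. Each probe set has 1 deposited intensity for each array, not on a log scale, and GCOS 1.2 is named in the submitters' processing notes. The scaling target and genome build are not given in the sources used here.

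Of 57381 probe sets, 187 controls were left out. Values were quantile normalised and taken to log2(intensity + 16), and those whose mean log2 value reached the 40th percentile were kept. The fit used R 4.3.3 and limma 3.58.1, with group as the only term, eBayes with a trend, two-sided tests and Benjamini-Hochberg adjustment at 0.05, and it was tested on simulated data. Probe sets were named through GEO's platform annotation and NCBI's gene table (ASM3414082v1), using only those paired with 1 gene. Members carry a symbol or synonym such as PIP2-2. TIP5;1, written only with a semicolon, was not taken by that pattern and was not analysed here. List names were matched by symbol or synonym, and BC1, CP1 and MADS2 each matched 2 genes, which were kept. The members and lists were chosen with earlier results of these data known. Every member was named, and list genes by smallest p in each direction. The rule for full statistics (called members, those with the smallest p and the brightest of each kind) was widened to a difference, SE and adjusted p for every tested member, with group means for PIP2-2, PIP1-2 and TIP4-1 only. RTS, C6, SPL14, LAX1, OSH1, MADS15, FZP, CESA9, HAK5 and Lsi2 were named after their values were seen. Alternatives were other scalings, pseudocounts and filters, averaged probe sets, a replicate block and each array left out.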

Additional observations from a re-analysis of the deposited data

How the results depend on the processing

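The number of aquaporins past the threshold (1, PIP2-2) was 0 with the values as deposited, with log2(value + 1), with no filter, with a filter at the 60th percentile, and with the mean of a gene's probe sets, and it ranged from 0 to 1 with 1 array left out. PIP2-2 passed in 4 of 12 alternatives, its sign being positive in all 12. Its limma adjusted p was 0.0607 with log2(value + 1), 0.0640 at the 60th percentile and 0.698 with no filter. The members' median (0.31) was 0.24 with the values as deposited, 0.24 after median centring, 0.11 with no filter (25 genes tested), 0.35 with log2(value + 1) and 0.12 with log2(value + 64), and 0.20 to 0.29 with 1 array left out. Over all probe sets, the 195 calls (53 higher, 142 lower) became 391 (59 higher, 332 lower) after median centring, 270 (37 higher, 233 lower) as deposited, 128 (37 higher, 91 lower) with log2(value + 1) and 0 with no filter (3849 at an unadjusted p under 0.05), and 53 to 229 with 1 array left out. The cause was not tested. With 1 array in a group, its spread is taken from the other group. The transport lists had 0 calls under every alternative run for them. The sign reversed for 3 members: NIP2-1 (-0.103 when high grain number replicate 2 was left out and -0.00656 when low grain number replicate 2 was, range -0.103 to 0.26), NIP4-1 (0.68 when high grain number replicate 1 was left out, range -0.97 to 0.68) and PIP2-1 (0.013 with averaged probe sets, 0.060 when high grain number replicate 2 was left out and 0.28 when low grain number replicate 1 was, range -0.32 to 0.28). The other 18 kept their sign wherever they were tested. With the replicate number as a block, 654 probe sets and 5 aquaporins passed, which besides PIP2-2 were PIP1-2, PIP2-7 and TIP2-2 (higher) and TIP4-1 (lower). Same-numbered arrays had deviations correlated at 0.111. The labels do not say whether such arrays share a source, so whether they are paired is not known. Dim members are limited by signal over background, since 10 of the 25 had a mean intensity under 16.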
